A study of Anser anser with 2 samples.

Results

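The miR-146 family was followed through small RNA sequencing of goose liver, in 1 overfed and 1 control library. Its members were all reads whose deposited miRNA name, after the species prefix, is miR-146 with any letter, arm or star. They came to 6 of the 1177 mature miRNAs in the tables: miR-146a-5p, both arms of miR-146b, both arms of miR-146c, and a miR-146 without a letter. The overfed liver, described as fatty, came from male geese of the Landes breed, which is used to produce foie gras. They were aged 90 days, given a carbohydrate-rich diet and overfed for 21 days. That diet held 3353 kcal, 76 g of protein and 15 g of fat per kg. The control liver, described as normal, came from geese of the same breed, sex and age that ate a basal diet freely (2873 kcal and 171 g of protein per kg). The study held 60 geese, and the sources used here do not say how many were pooled in each library. The diet and the way of feeding differ together between the libraries and cannot be told apart. Since each group has a single library, nothing here is checked by a replicate. Each difference lies between these 2 libraries, no test between groups was possible, and the intervals reflect counting error alone.

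The miR-146 family is a brake on innate immune signalling. In mammals, Toll-like receptors and inflammatory cytokines switch on miR-146a through NF-kB. The 5p arm represses the signalling proteins TRAF6 and IRAK1, which carry the signal from the same receptors. The 5p arms of the family have one seed, the stretch that pairs with target messages, and differ near the 3′ end. In liver, both leukocytes and tissue cells can express the family, and in whole tissue fewer cells of a type and less RNA per cell cannot be told apart.

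The reference sequences shown here are those the tables matched to the reads, written as DNA with the seed (bases 2 to 8) in capitals. They are shown because the 5p arms share their first 17 bases and can be told apart only beyond them.
miR-146a-5p (mouse name): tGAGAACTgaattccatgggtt
miR-146b-5p (chicken name): tGAGAACTgaattccataggcg
miR-146c-5p (chicken name): tGAGAACTgaattccatggactg
miR-146b (frog name, xtr): tGAGAACTgaattccatggact
miR-146c-3p (chicken name): aGTCCATGgtattcagttctct
miR-146b-3p (zebra finch name): tGCCCTATggattcagttctgc
The seed GAGAACT was common to all 11 names of the 5p arms, and 0 other names in the tables carried it. The 3p arms of miR-146b and miR-146c had different seeds from each other and from the 5p arms. Counted from 1 at the 5′ end, the chicken miR-146c differs from the chicken miR-146b by G18A, A20G and T22G and from the mouse miR-146a by A20G and C21T. The chicken miR-146b differs from the mouse miR-146a by A18G, C21T and G22T.

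The frog reference named miR-146b carries the miR-146c sequence. All of its 22 bases are identical to the first 22 of the 23 bases of chicken miR-146c. A goose read with the miR-146c sequence could therefore be given the name miR-146b, and the name alone did not say which member it was. For this reason each member is given both by its deposited name and by the letters its reads hold at bases 18 to 21.

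By name, the family held 26079 of 9737540 listed miRNA reads in the overfed library and 23624 of 9178938 in the control library, which is 0.268% (exact 95% interval 0.265% to 0.271%) and 0.257% (0.254% to 0.261%). Levels are given as reads per 1000000 listed miRNA reads (RPM), where 1 read was 0.103 RPM in the overfed library and 0.109 RPM in the control library. The family stood at 2678 RPM in overfed liver and 2574 RPM in control liver, a log2 ratio of 0.06 (0.03 to 0.08). That sum was below 0 with 2 other scalings, at -0.18 with edgeR's TMM factors and -0.04 with DESeq2's median-of-ratios factors, so it shows no stable direction. Nearly all of it was a single member.

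miR-146b-5p was the main form, with 25535 reads (2622 RPM) in the overfed library and 22886 reads (2493 RPM) in the control library. It was the 15th most abundant miRNA name in both libraries. Its log2 ratio was 0.07 (0.05 to 0.10), which turned to -0.16 with TMM factors and -0.02 with median-of-ratios factors. miR-146a-5p, the member best known from leukocytes and the NF-kB circuit in mammals, was far scarcer in goose liver. It had 209 reads (21.5 RPM) in overfed liver and 243 (26.5 RPM) in control liver, a log2 ratio of -0.30 (-0.58 to -0.03). miR-146c-5p had 169 reads (17.4 RPM) in overfed liver and 368 (40.1 RPM) in control liver, a log2 ratio of -1.21 (-1.48 to -0.94). The 3p arm of miR-146c had 143 reads (14.7 RPM) in overfed liver and 111 (12.1 RPM) in control liver, a log2 ratio of 0.28 (-0.09 to 0.65), within counting error of no difference on this scaling. The 3p arm of miR-146b had 19 and 12 reads in the overfed and control libraries (1.95 and 1.31 RPM), and the name without a letter 4 in each.

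A rule of size asked for 10 RPM or more on average, a ratio of 2 times or more and an interval without 1. Of the 4 members past the minimum, by name, only miR-146c-5p met it, on the lower side. Over all 140 miRNAs past the minimum, 12 met the rule (8.57%), of which 10 were higher (7.14%) and 2 lower (1.43%). The count of members is too small to be read against that background.

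**Figure D1:**
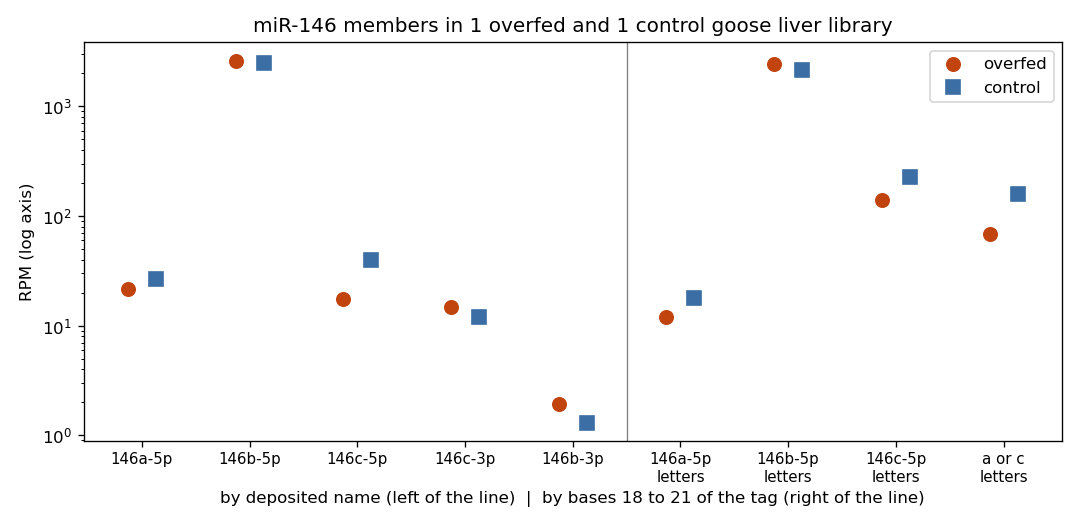
Level of each miR-146 member in RPM (log axis) in the overfed (circles) and control (squares) library, by deposited name left of the line and by the letters of the read right of it; each point is 1 library. miR-146b-5p lies highest by either reading, while miR-146c-5p is at 17.4 and 40.1 RPM by name and at 140 and 225 RPM by its letters.

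Reading the letters moved most of miR-146c. Reads with A at base 18 were taken as miR-146b, reads with G at base 18 and A at base 20 as miR-146c, and reads with G at both as miR-146a, with C, C and T allowed at base 21. The miR-146a letters are those of the mouse reference. The cattle, zebrafish and medaka miR-146a references and the frog miR-146 have A at base 18, so short reads with A there could fit them too. Tags reaching base 21 held 23646 of the 23707 overfed and 19698 of the 19756 control reads taken as miR-146b. Of the 5p reads, 97.2% in the overfed library and 93.6% in the control library could be told apart. The letters of miR-146c were found in 1365 overfed reads (140 RPM) and 2068 control reads (225 RPM), several times the number that carried its name. Of these, 87.3% in overfed liver (exact 95% interval 85.4% to 89.0%) and 82.1% in control liver (80.4% to 83.7%) had been given the frog name miR-146b. Only 12.2% and 17.6% were under the name miR-146c.

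With its reads gathered, miR-146c-5p was lower in the overfed library by a log2 ratio of -0.68 (-0.78 to -0.59), which no longer reaches 2 times. The reads named miR-146c were its long forms: 169 of 169 in overfed liver and 363 of 368 in control liver ran to base 23 or beyond. The direction held with TMM factors (-0.92) and median-of-ratios factors (-0.78), and with tags that reach base 21 (-0.74). miR-146b-5p by its letters had 23707 overfed reads (2435 RPM) and 19756 control reads (2152 RPM), a log2 ratio of 0.18 (0.15 to 0.21). That ratio was -0.06 with TMM factors and 0.08 with median-of-ratios factors. miR-146a-5p by its letters had 118 overfed reads and 165 control reads, a log2 ratio of -0.57 (-0.92 to -0.22). Its common tags did not all go the same way. The commonest, of 23 nt, had 31 overfed and 57 control reads (-0.96, -1.64 to -0.31). The 22 nt tag equal to the mouse reference had 25 overfed and 18 control reads (0.39, -0.54 to 1.35). The 24 nt tags ending in A and in T were at 0.19 and -0.48, each within counting error of no difference.

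The balance inside the family does not depend on how the libraries are scaled. Among reads told apart, miR-146c made up 5.42% in overfed liver (5.14% to 5.71%) and 9.40% in control liver (9.02% to 9.80%). miR-146b made up 94.1% in overfed liver (93.8% to 94.4%) and 89.8% in control liver (89.4% to 90.2%). miR-146a made up 0.468% in overfed liver (0.388% to 0.561%) and 0.750% in control liver (0.641% to 0.873%). The intervals of the libraries did not overlap for any of the 3 members, so the difference in balance is larger than counting error. The 3 shares are parts of 1 total and are not separate results. Differences beyond counting error were common between these libraries: of all 140 miRNAs past 10 RPM, 62 (44.3%) were higher and 44 (31.4%) lower. The total leaves out short reads that fit both miR-146a and miR-146c, which were 2.57% of overfed and 6.18% of control 5p reads. Whether the difference in balance is larger than the difference between birds was not tested.

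**Figure D2:**
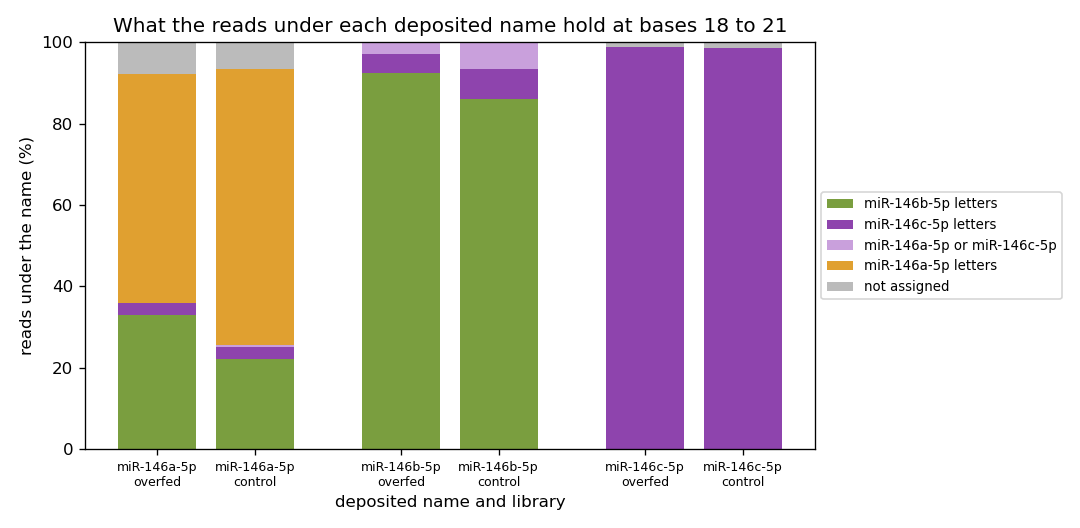
Share of the reads under each deposited 5p name (%) that hold the letters of each member at bases 18 to 21, with the overfed library left of the control library in each pair. The miR-146b-5p bars hold miR-146c letters (4.67% overfed, 7.42% control) and reads that fit both miR-146a and miR-146c (2.60% and 6.34%), and the miR-146a-5p bars hold miR-146b letters (33.0% and 22.2%).

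The name miR-146a was mixed too. Of the 209 overfed reads under it, 118 held the letters of miR-146a and 69 those of miR-146b; of the 243 control reads, 165 held the letters of miR-146a and 54 those of miR-146b. Most of these miR-146b reads, 66 of 69 in overfed and 46 of 54 in control liver, had a base changed within the first 17. The name also includes 9 overfed and 12 control reads under a medaka name that ends in 3p although its reference is a 5p sequence. All reads with miR-146a letters had a miR-146a name. By count the miR-146b reads under a miR-146a name were a small part of miR-146b, of which 99.7% kept a miR-146b name in each library.

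A selection of the common tags behind these counts is shown with the bases from 18 on in capitals.
miR-146b letters, 24 nt: tgagaactgaattccatAGGCGTT
miR-146b letters, 23 nt: tgagaactgaattccatAGGCGT
miR-146b letters, 25 nt: tgagaactgaattccatAGGCGTTT
miR-146b letters, 22 nt: tgagaactgaattccatAGGCG
miR-146c letters, 21 nt: tgagaactgaattccatGGAC
miR-146c letters, 22 nt: tgagaactgaattccatGGACT
miR-146c letters, 23 nt: tgagaactgaattccatGGACTG
miR-146c letters, 23 nt with AA: tgagaactgaattccatGGACAA
miR-146a letters, 23 nt: tgagaactgaattccatGGGTTG
miR-146a or miR-146c, 19 nt: tgagaactgaattccatGG
miR-146a or miR-146c, 18 nt: tgagaactgaattccatG

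The commonest tag of the family was the 24 nt miR-146b form, with 11351 overfed reads and 9088 control reads (1166 and 990 RPM, log2 ratio 0.24, 0.20 to 0.28). It is 2 bases longer than the chicken reference and was matched to the 24 nt rat reference with 2 mismatches, at a score of 42 against 38 for the chicken one. The 23 nt form had 8767 overfed and 7425 control reads (log2 ratio 0.15, 0.11 to 0.20) and the 22 nt form, equal to the chicken reference, 1031 and 828 (0.23, 0.10 to 0.36). These 3 forms were all higher in the overfed library on this scaling. The 25 nt form that adds a further T had 1196 overfed and 1275 control reads and was lower (-0.18, -0.29 to -0.06), while the 26 nt form with another T had 288 and 193 and was higher (0.49, 0.22 to 0.76). Whether the added T bases are encoded in the goose precursor was not tested.

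**Figure D3:**
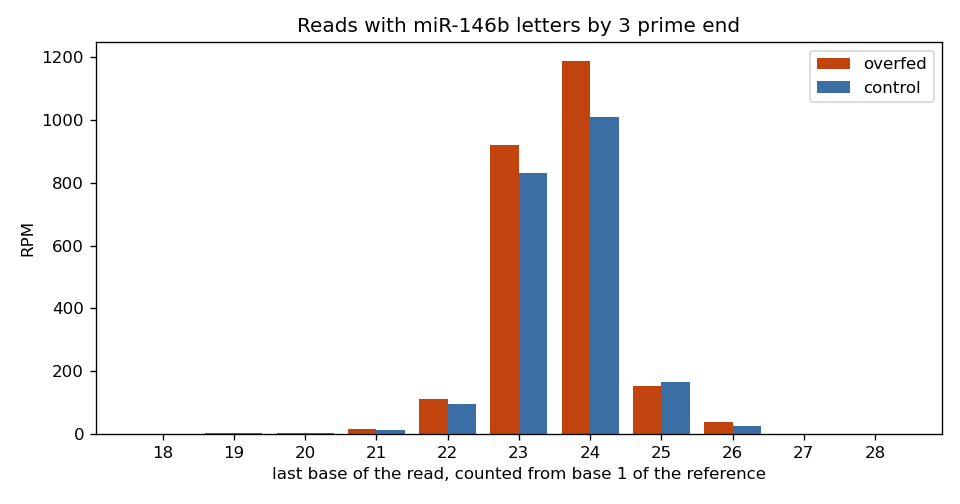
Level in RPM of reads with miR-146b letters by the last base of the read, counted from base 1 of the reference, in the overfed (left bars) and control (right bars) library. Reads ending at base 24 stand highest, at 1188 RPM overfed and 1011 RPM control, followed by base 23, and only base 20 and base 25 are lower in the overfed library.

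Among reads that reach base 20, the commonest miR-146c tag was the 21 nt form, with 874 overfed reads and 1168 control reads (89.8 and 127 RPM, log2 ratio -0.50, -0.63 to -0.38). The 22 nt form had 120 overfed and 301 control reads (log2 ratio -1.41, -1.73 to -1.10). The 20 nt form, which ends in GGA, had 154 overfed and 156 control reads (-0.10, -0.43 to 0.23), within counting error of no difference. The 23 nt form equal to the chicken reference had 38 and 87 (-1.28, -1.87 to -0.71), and the form in which AA replaces its last bases 31 and 85 (-1.54, -2.18 to -0.93). All reads ending at base 22 or beyond summed to 320 overfed and 712 control reads, a log2 ratio of -1.24 (-1.43 to -1.05). Reads ending at base 20 or 21 summed to 1045 overfed and 1356 control reads, a log2 ratio of -0.46 (-0.58 to -0.34). The longer reads thus differed more than those ending at base 20 or 21. Still shorter reads, which could not be given to 1 member, also differed more, with log2 ratios of -1.12 at base 19 and -1.70 at base 18. The 19 nt tag, which fits miR-146a as well as miR-146c, had 574 overfed and 1179 control reads, so in control liver it was as common as the 21 nt form.

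Among miR-146c reads that reach base 20, those ending at base 22 or beyond were 23.4% in overfed liver (21.2% to 25.8%) and 34.4% in control liver (32.4% to 36.5%). With the shorter reads that fit miR-146a or miR-146c added, they were 15.8% in overfed liver (14.2% to 17.4%) and 20.2% in control liver (18.9% to 21.6%). On that total, reads ending at base 19 were also a lower share in overfed liver (28.5%) than in control liver (33.8%). Reads ending at base 21 were a higher share, at 43.5% in overfed and 33.7% in control liver. A lower share of long reads was common in the overfed library. Among 49 other miRNAs, each with 1000 reads or more in both libraries, the share of reads longer than the commonest length was lower in the overfed library for 42, with a median difference of -2.88 percentage points and a range of -17.0 to 4.79. For miR-146c the place among these depended on the shorter reads: the difference was -11.0 points without them, with 2 of the 49 lower, and -4.44 points with them, with 18 of the 49 lower. For miR-146b it was -1.14 points, and 32 of the 49 had a lower one.

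**Figure D4:**
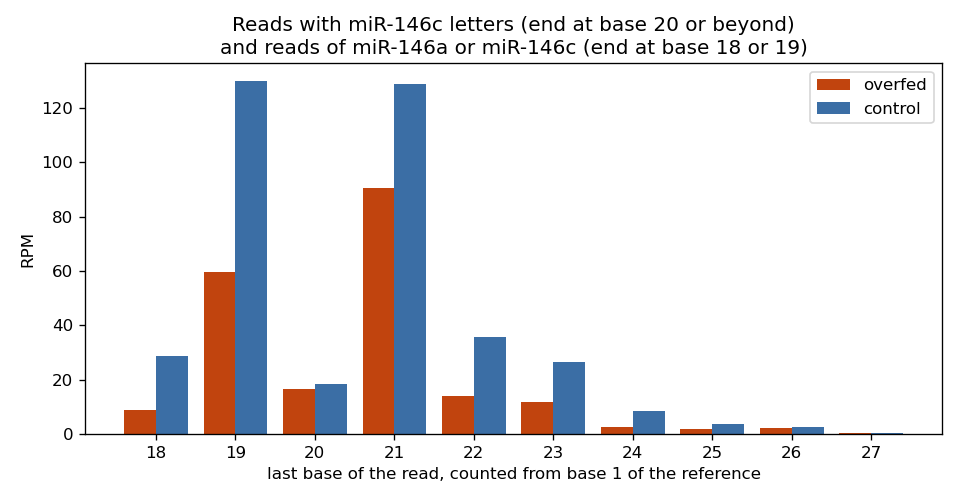
Level in RPM of reads with miR-146c letters (ending at base 20 or beyond) and of reads that fit both miR-146a and miR-146c (ending at base 18 or 19), by the last base of the read, in the overfed (left bars) and control (right bars) library. Base 21 is at 90.7 RPM overfed and 129 RPM control, base 22 at 14.1 and 35.7, and base 20 is the closest pair among the ends above 10 RPM, at 16.6 and 18.6.

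Short reads that stop at base 18 or 19 with a G cannot be given to miR-146a or to miR-146c. There were 665 in the overfed library (68.3 RPM) and 1453 in the control library (158 RPM), a log2 ratio of -1.21 (-1.35 to -1.08). Most were the 19 nt tag, and the 18 nt tag had 84 in the overfed and 262 in the control library. All but 1 of these reads were named miR-146b, although the chicken, rat, pig and human miR-146b references all have A at base 18. The 19 nt tag scored 32 against the 21 nt pig miR-146b, with gaps, and 29 against the mouse miR-146a and the frog miR-146b; each reference base left uncovered cost 3, so the shortest reference came first. Among longer reads given to miR-146a or miR-146c by their letters, miR-146c made up 92.0% in overfed liver and 92.6% in control liver. Adding the short reads to miR-146c gave 2030 overfed and 3521 control reads, a log2 ratio of -0.88 (-0.96 to -0.80). Tags of 18 or 19 nt lie below the 20 to 30 nt that the labels' protocols give for the fragments. Whether size selection bears on the values that include them was not tested.

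The start of the 5p reads with miR-146b or miR-146c letters was nearly fixed. Reads beginning at base 1 were 99.5% of overfed and 99.4% of control miR-146b reads. For miR-146c they were 99.6% of overfed and 99.3% of control reads. Almost all of these reads thus kept the position of the seed GAGAACT, and bases changed within it were not counted. The 3p arm of miR-146c was ragged. Its commonest tags are shown with their own bases 2 to 8 in capitals, since a shifted start moves the seed.
start as the reference, 20 nt: aGTCCATGgtattcagttct
start 1 base later, 19 nt: gTCCATGGtattcagttct
start 2 bases earlier, 22 nt: tCAGTCCAtggtattcagttct
start 2 bases later, 18 nt: tCCATGGTattcagttct
Reads starting as the reference were 37.8% of the arm in overfed liver (29.8% to 46.2%) and 35.1% in control liver (26.3% to 44.8%). Reads starting 1 base later were 29.4% in overfed and 31.5% in control liver, those starting 2 bases earlier 21.0% and 20.7%, and those starting 2 bases later 11.9% and 12.6%. None of these shares differed between the libraries beyond their intervals. At the 3′ end, 97.9% of overfed and 97.3% of control reads stopped at or before the base 2 short of the end of the chicken reference.

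The arms of miR-146c did not keep the same balance in the libraries. By letters, the 3p arm was 9.48% of miR-146c reads in overfed liver (8.05% to 11.1%) and 5.09% in control liver (4.21% to 6.10%). With the short reads counted on the 5p side it was 6.58% in overfed liver (5.57% to 7.71%) and 3.06% in control liver (2.52% to 3.67%). By name it appeared as 45.8% in overfed and 23.2% in control liver, because most 5p reads were under another name. The 5p arm therefore led in both libraries. The 3p arm of miR-146b was under 0.1% of its arm pair in both libraries, at 0.0801% in overfed liver and 0.0607% in control liver. In RPM, the 3p arm of miR-146c did not differ beyond counting error (log2 ratio 0.28, -0.09 to 0.65). Its 5p arm by letters did (-0.68, -0.78 to -0.59), so the arm share is not a result separate from that ratio. Among other pairs, the arms of miR-126 went opposite ways (5p 0.30, 3p -0.31). Those of miR-21 were both higher (5p 0.14, minor arm 0.28). How often arm shares differ over all pairs was not tested.

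The rest of the innate immune miRNAs gave the setting. The list held 16 names tied to Toll-like receptor or NF-kB signalling, all with reads. Of their arms, 8 passed the minimum, and 0 of these met the rule of size (12 of all 140 miRNAs, 8.57%). The list is too small to be read against that share. Of the 8, 4 were higher beyond counting error (62 of all 140 miRNAs, 44.3%) and 2 lower (44 of 140, 31.4%). Their median log2 ratio was 0.10, the same as over all 140. miR-223-3p, a neutrophil and macrophage miRNA, stood at 29.7 RPM in overfed and 19.3 RPM in control liver (log2 ratio 0.62, 0.35 to 0.90), miR-181b-5p at 0.32, the minor arm of miR-21 at 0.28 and miR-21-5p at 0.14. miR-125b-5p, which targets TNF in mammals, stood at 101 and 157 RPM in overfed and control liver (-0.64, -0.76 to -0.52), and the lymphocyte miR-150-5p at 13.7 and 18.8 (-0.46, -0.80 to -0.13). miR-181a-5p (0.05) and miR-142-5p (0.06) did not differ beyond counting error. miR-155-5p, which in mammals is induced alongside miR-146a and promotes inflammatory responses, had 3 overfed reads and 0 control reads, where 0 allows up to 0.327 RPM. With TMM factors, which lower every log2 ratio by 0.23, 1 of the 8 was higher and 5 were lower. The share of all miRNAs beyond counting error on that scaling was not counted, so these counts are not a result about the list.

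**Figure D5:**
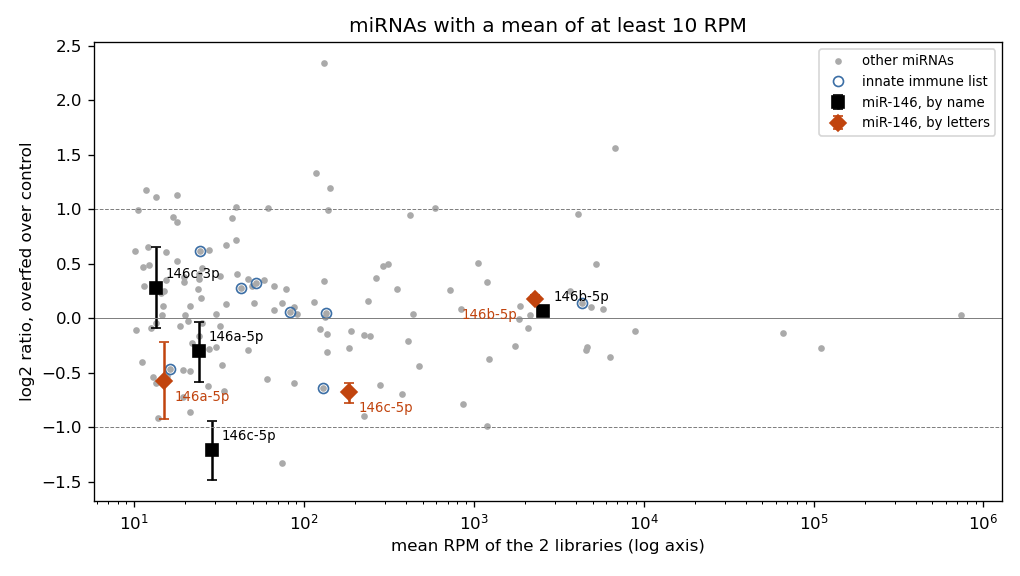
Log2 ratio of overfed over control against the mean RPM (log axis) for the 140 miRNAs past 10 RPM (grey), with the innate immune list circled, miR-146 members by name as black squares and by letters as diamonds; bars are exact 95% counting intervals and dashed lines mark 2 times. miR-146c-5p lies at -1.21 by name and at -0.68 by letters, inside the dashed lines.

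Single cell type markers went both ways. Those past 10 RPM differed by up to about as much as miR-146c-5p by letters (-0.68), and by less than miR-146c-5p by name (-1.21). Hepatocyte miR-122-5p held 74.4% of overfed and 72.7% of control reads (log2 ratio 0.03). Of the other 4 hepatocyte markers, miR-122-3p stood at 340 RPM in overfed and 244 RPM in control liver (0.48) and miR-148a-3p at 287 and 465 RPM (-0.69). miR-194-5p had 14 overfed and 6 control reads. The name miR-192-5p had 0 reads in both libraries, while the name miR-192 without an arm had 4 overfed and 0 control reads. The 5 leukocyte markers summed to 132 RPM in overfed and 122 RPM in control liver (log2 ratio 0.11, -0.01 to 0.23), with 3 past the minimum, single ratios of -0.46 to 0.62 among those 3, and miR-155-5p at or near 0. The 4 stellate or mesenchymal markers summed to 5804 and 7063 RPM in overfed and control liver (-0.28, single ratios -0.56 to -0.25). The 2 red cell markers summed to 300 and 346 (-0.20, single ratios -0.31 and -0.12). The 2 endothelial ones summed to 95.5 and 87.0 (0.13). These are the arms of miR-126 and went opposite ways, with 5p at 0.30 and 3p at -0.31. The part of all these markers in the miR-146 values was not tested.

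Among the 140 miRNAs past 10 RPM on average, those with the log2 ratio nearest to each member, over these 2 libraries only, were miR-2954 (-1.33), miR-30d-5p (-0.99) and miR-758-5p (-0.91) for miR-146c-5p by name. For miR-146a-5p by name (-0.30, against -0.57 by letters) they were miR-199-3p (-0.29), miR-126-3p and miR-144-3p (both -0.31). For miR-146b-5p by name they were miR-2188 (0.08), miR-142-5p (0.06) and let-7b-5p (0.09), and for miR-146c-3p the minor arm of miR-21 (0.28), miR-130c and miR-4206-3p (both 0.27). The miRNAs nearest to the ratios by letters were not sought.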

How the data were processed

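Fragments of 20 to 30 nt from 10 μg of total RNA were made into Illumina libraries, per the labels' protocols. The authors deposited raw read counts per distinct tag, each with its closest reference miRNA from any species and an alignment score. That score (2 per match, less 1 per mismatch and 3 per gap) was recomputed and matched in all 586 miR-146 rows. The sources used here name no aligner or miRNA database. The totals of 9737540 and 9178938 reads (overfed, control) count listed miRNA reads, not whole libraries. Intervals and floors (3 counts) cover counting error only, since amplified reads carry no molecular identifiers.

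Reads were summed over species by name and arm. Names lacking a letter joined a lettered name when the references shared a run of 18 bases or more that missed at most 2 bases of the shorter one, except in miR-146, whose arms followed the reference sequence. By letters, reads were placed without gaps on the shared 17 bases (at most 2 mismatches). A at base 18 with G at 20 and C at 21 gave miR-146b, G with A and C miR-146c, and G with G and T miR-146a. G was required at 19, and missing bases were allowed except base 20 after G at 18. Ratios have exact conditional binomial (Clopper-Pearson) 95% intervals and shares exact Clopper-Pearson intervals. Counting and sorting were tested on simulated data. The simulated reads for sorting all reached base 21 and had errors only within the first 17 bases. Sorting of shorter reads, or of reads with errors at bases 18 to 21, was therefore not tested. Alternatives were other scalings, tag filters and 1 RPM added. The text names all miR-146 names, their commonest tags and list members past 10 RPM. Among all miRNAs past 10 RPM it names the 3 closest ratios per member. miR-155-5p, the longer-read values and the arm pairs set beside miR-146c were chosen after their values were seen. The members and lists were chosen with earlier results of these data known. Python 3.11.15, numpy 2.4.6, pandas 2.3.3, scipy 1.17.1, matplotlib 3.10.9, R 4.3.3, edgeR 4.0.16 and DESeq2 1.42.0 (the last pair for scaling factors only) were used.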

Additional observations from a re-analysis of the deposited data

How the results depend on the processing

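No paired analysis was possible because overfed and control liver have a single library each; for the same reason no replicate was left out. Scaling shifts all log2 ratios by 1 constant: -0.23 with TMM factors, -0.10 with median-of-ratios factors and 0.09 with reads other than miR-122-5p as the total. In that order, miR-146b-5p (0.07) was at -0.16, -0.02 and 0.17, and the family (0.06) at -0.18, -0.04 and 0.15. With reads other than miR-122-5p as the total, the interval of miR-146c-3p no longer held 0 (0.37, 0.01 to 0.74). On the same total, that of miR-146a-5p by name did hold 0 (-0.21, -0.48 to 0.06). When tags under 21 bases were dropped, miR-146b-5p was at 0.13 and the family at 0.11. With tags without a mismatch, which drops the 24 nt form, they were at -0.05 and -0.06, and miR-146a at -0.74. miR-146c-5p by name stayed between -1.44 and -1.11 under scaling, length, mismatch and 1 RPM added.

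By letters, miR-146c-5p was at -0.68, against -1.21 by name, and miR-146b-5p at 0.18. The following were chosen after seeing the data. With tags reaching base 21, miR-146a, miR-146b-5p and miR-146c-5p by letters were at -0.58, 0.18 and -0.74. With TMM factors they were at -0.80, -0.06 and -0.92, and with median-of-ratios factors at -0.66, 0.08 and -0.78. With the reads of miR-146a or miR-146c added, miR-146c-5p was at -0.88, its reads ending at base 22 or beyond were 15.8% of overfed and 20.2% of control reads (23.4% and 34.4% without), and its 3p arm 6.58% and 3.06% (9.48% and 5.09% without). Tags reaching base 21 told apart 96.3% of overfed and 92.6% of control 5p reads.

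miR-146c by name, both arms, was 1.20% of overfed and 2.03% of control miR-146 reads; this was 0.798% and 1.79% with tags of at least 21 bases, 1.81% and 2.41% with tags without a mismatch, and 5.78% and 9.22% by letters. The rule of size was met by 10 higher and 2 lower miRNAs. With TMM factors 3 higher and 7 lower met it, and with median-of-ratios factors 7 higher and 4 lower. Without a minimum, 39 higher and 9 lower met it. The innate immune list, with 4 higher and 2 lower beyond counting error, had 1 higher and 5 lower with TMM factors. The share of all miRNAs beyond counting error with TMM factors was not counted. The cause was not tested beyond the construction of each setting. Depth limits miR-146a, the 3p arms and the long miR-146c forms, which rest on few reads.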
